A study of Mus musculus with 6 samples.

Results

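The genes described here are 10 genes of the blood vessel wall and of its main growth signals: the endothelial genes Pecam1, Cdh5 and Vwf, the VEGF receptor genes Kdr and Flt1 with the ligand genes Vegfa and Vegfb, and the receptor gene Tek with its ligand genes Angpt1 and Angpt2. They were chosen by name from the 55573 genes listed in RNA-seq of inguinal fat, a white depot under the skin. Their measured values were not used for the choice, but earlier results of these data were known. The tissue came from 3 THRA K283Q/K288R mutant and 3 Wt mice, with 1 library per mouse. All 6 were 3-month-old male C57BL/6NTac mice on regular chow without treatment. The mutant mice carried a homozygous knock-in of both substitutions in Thra, the gene of a thyroid hormone receptor, in every tissue, which reduces the attachment of SUMO to the receptor. They came from targeted embryonic stem cells and had been bred for at least 3 generations, and the controls were bred in the same house. Values per gene do not show a point mutation, so the genotypes rest on the labels.

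White fat is densely supplied with capillaries, and growth of the depot is accompanied by growth of its vessels. Adipocytes and stromal cells secrete VEGF ligands, which bind receptor tyrosine kinases on endothelial cells. KDR, or VEGFR2, carries most of the growth signal of VEGFA. FLT1, or VEGFR1, binds VEGFA tightly with weak kinase activity and is also the receptor of VEGFB. Angiopoietin 1 from mural and stromal cells activates TEK, or TIE2, and stabilizes vessels, whereas angiopoietin 2 from endothelial cells opposes it in many settings. In RNA from whole tissue, fewer endothelial cells and less RNA per endothelial cell cannot be told apart.

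The deposited values are reads per gene divided by a scaled library size, in normalized CPM (counts scaled to a common library total), and came from 19607423 to 24228381 reads on genes per mouse. The 10 genes had 205 to 7338 reads each in a mouse, well above the 3 reads that correspond to 0.126 to 0.157 CPM, a floor that covers counting error only. All 10 passed the filter on low values and were among the 16868 genes tested with limma on log2(value + 0.5). Libraries differed in the tissue they held. The summed level of the lymph node list (9 of 10 genes tested, 0 called, with Ccl21a at 0 in every mouse) was 2.83 CPM in mutant mouse 1 and 297 in Wt mouse 1, against 422 to 721 in the other 4 mice. Of the mesothelium list, 7 of 8 genes were called higher in the mutant mice, with a sum of 8.32 to 34.0 CPM in Wt and 42.8 to 85.7 in mutant mice. Its genes Upk3b and Msln reached at most 1.09 and 0.715 CPM in a Wt mouse and at least 11.4 and 6.28 in a mutant mouse. The uncalled gene of this list, Krt19, was at 28.5 CPM in Wt mouse 1, the mouse with the sum of 34.0 CPM. Of 8 skeletal muscle genes 1, the myosin gene Myh1, was called higher, with sums of 10482.6 to 22433.8 and 17115.5 to 26668.7 CPM. Of 8 macrophage genes 1, C1qa, was called lower (-0.50 ± 0.10 on the log2 scale, SE, adjusted p = 0.031, limma). No gene was called in the adipocyte, adipose progenitor, platelet, red cell, epithelium or Schwann cell lists. The epithelium list nevertheless summed to 86.3 CPM in Wt mouse 1, against 3.84 to 23.6 CPM in the other mice. Adipocyte markers summed to 14531 to 20802.3 CPM in Wt and 10379.7 to 15964.9 in mutant mice. The part of these differences in the results below was not tested. Values without a library, where given, leave in place a difference that all mutant mice share, such as that of Upk3b and Msln.

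None of the 10 genes was called at a false discovery rate (FDR) of 0.05 (limma), where 8.11% of all genes tested were called, 928 higher and 440 lower in the mutant mice. That split was 1019 to 265 with scaling by library size only and 858 to 108 after centring by GC content. It was 177 to 167 without genes under an abundant gene (at least 10 times their level) of the other strand. edgeR's quasi-likelihood test also called 0 of the 10, and DESeq2's Wald test called 2, Kdr and Tek. The same 2 genes had an unadjusted p under 0.05 in limma, and they were the 2 of 10 whose values did not overlap between the genotypes, against 30.6% of all genes tested. Of the 10 genes, 7 had a higher and 3 a lower mean log2 value in the mutant mice, and their median log2 fold change was 0.05, beside -0.05 over all genes tested. Mouse 1 was the highest Wt mouse for 8 of the 10 genes, and mouse 3 the lowest mutant mouse for 8.

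**Figure D1:**
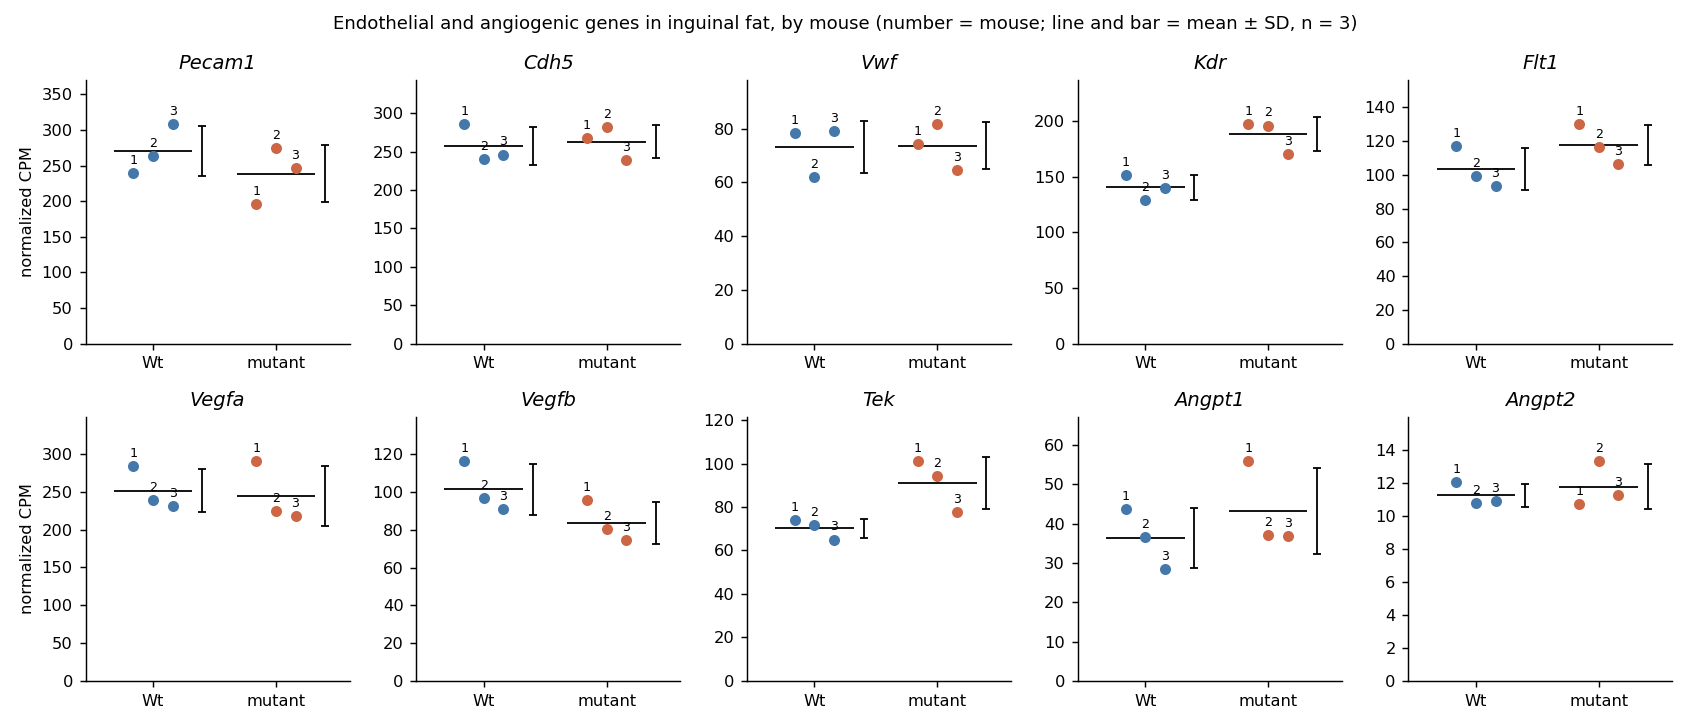
Normalized CPM (vertical axes, from 0) of each of the 10 genes in 3 Wt (blue) and 3 mutant (orange) mice, with the mouse number above each point, the mean as a line and ± 1 SD as a bar. Only in the panels of Kdr and Tek do all mutant mice sit above all Wt mice, at 171 to 198 against 129 to 152 and at 77.9 to 101 against 65.0 to 73.8 CPM.

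Divided by the length of the longest transcript, the levels in Wt mice formed tiers. Vegfb was at 79.1 ± 10.4 CPM per kilobase (SD, n = 3), Pecam1 at 78.7 ± 10.2, Vegfa at 72.8 ± 8.31 and Cdh5 at 64.6 ± 6.24, and the ranges of neighbours in this order overlapped. Kdr followed at 23.7 ± 1.88, then Tek at 15.1 ± 0.978 and Flt1 at 15.0 ± 1.80, which overlapped. Angpt1 (8.51 ± 1.79) and Vwf (8.29 ± 1.09) overlapped as well. Angpt2 was the lowest, at 3.16 ± 0.198 CPM per kilobase. The endothelial junction genes and the VEGF ligand genes thus had the highest levels per length.

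Promoter windows are shown for the receptor genes and for the ligand gene Vegfb. Kdr and Tek had the largest positive log2 fold changes of the 10 genes and Vegfb the largest negative one, but none was called. The windows are the 250 bases before the start of the gene in RefSeq (GRCm38.p6), 5′ to 3′ on the strand of the gene. A window was available for 5 of the 10 genes. The motifs were searched on both strands and were chosen after the values were seen. Capitals mark matches to AGGTCA (half-site of nuclear receptors), TGACG (half-site of the cAMP response element, the binding site of CREB), ACGTG and GCGTG (cores of the hypoxia response element) and CAGGAA (core of ETS factors), and overlapping matches run together.
Kdr, chr5:75978456-75978705, minus strand: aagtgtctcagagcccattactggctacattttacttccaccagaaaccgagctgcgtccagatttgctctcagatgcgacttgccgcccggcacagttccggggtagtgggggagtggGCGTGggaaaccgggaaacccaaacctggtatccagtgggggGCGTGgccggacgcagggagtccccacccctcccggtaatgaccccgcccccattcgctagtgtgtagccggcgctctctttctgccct
Flt1, chr5:147726012-147726261, minus strand: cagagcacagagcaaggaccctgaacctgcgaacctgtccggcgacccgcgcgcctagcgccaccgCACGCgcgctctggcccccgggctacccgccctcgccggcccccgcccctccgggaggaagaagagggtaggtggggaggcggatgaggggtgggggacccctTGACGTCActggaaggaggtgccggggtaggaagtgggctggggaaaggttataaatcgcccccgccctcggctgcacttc
Tek, chr4:94739039-94739288, plus strand: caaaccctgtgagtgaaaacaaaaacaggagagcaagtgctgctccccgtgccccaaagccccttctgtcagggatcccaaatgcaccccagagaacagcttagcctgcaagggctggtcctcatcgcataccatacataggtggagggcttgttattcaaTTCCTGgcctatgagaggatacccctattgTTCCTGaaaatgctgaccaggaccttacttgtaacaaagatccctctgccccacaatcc
Vegfb, chr19:6987652-6987901, minus strand: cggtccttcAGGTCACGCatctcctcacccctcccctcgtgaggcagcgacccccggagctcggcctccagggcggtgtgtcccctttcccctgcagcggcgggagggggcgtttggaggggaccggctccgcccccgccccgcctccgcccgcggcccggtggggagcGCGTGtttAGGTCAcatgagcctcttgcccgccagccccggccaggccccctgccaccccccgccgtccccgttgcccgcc
The Kdr window held GCGTG at 131 and 89 bases before the start, a motif present in 28.2% of the 32851 windows of this length. The Flt1 window held it at 184 bases and the Vegfb window at 237 and 81 bases, so 3 of the 4 windows shown had it. Of all 6 windows of the 10 genes, including those of Vegfa, which are not shown, 4 had it. The GC content was 61.6% in the Kdr window, 70.4% in the Flt1 window and 51.2% in the Tek window, which lacked the motif. The part of GC content in these matches was not tested. In the Flt1 window, a full TGACGTCA, in which TGACG matches on each strand, began 81 bases before the start, and 1.55% of all windows held it (17.8% for TGACG alone). The Tek window held CAGGAA on the other strand at 89 and 59 bases (25.7% of windows). The Vegfb window was the only one of these 4 with AGGTCA, at 241 and 73 bases (14.0% of windows), and it was the richest in GC, at 76.4% against a median of 52.4%. ACGTG (16.6% of windows) was in none of the 4. A match is a description of the letters and does not show that a factor binds there.

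Kdr (ENSMUSG00000062960, chr5:75932827-75978458, minus strand), the gene of the main signaling receptor for VEGFA, had the largest difference of the 10 genes. Wt mice 1, 2 and 3 had 152, 129 and 140 CPM, and mutant mice 1, 2 and 3, in the order used throughout, had 198, 196 and 171 CPM. The lowest mutant mouse was above the highest Wt mouse. The means were 140 ± 11.2 and 188 ± 15.1 CPM (SD, n = 3), a ratio of 1.34. The log2 fold change was 0.42 ± 0.10 (SE, 95% interval 0.18 to 0.66), with an adjusted p of 0.0543 in limma, just outside the threshold. Over the alternatives the adjusted p was 0.0022 to 0.188, and it passed with DESeq2's size factors (0.0483) and with library size only (0.0468), both in limma. It did not pass in limma after centring by GC content (0.135) or with any 1 mouse left out (0.0637 to 0.188).

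Flt1 (ENSMUSG00000029648, chr5:147561604-147726011, minus strand) encodes the other VEGFA receptor of blood endothelium. Its values were 117, 99.2 and 93.6 CPM in Wt and 130, 117 and 106 CPM in mutant mice. The means of 103 ± 12.4 and 118 ± 12.1 CPM differed by little more than 1 SD and the genotypes overlapped. The log2 fold change was 0.19 ± 0.12 (SE, 95% interval -0.10 to 0.48, adjusted p = 0.375, limma), so a difference of the size seen for Kdr lies within its interval. Within a mouse, the ratio of Flt1 to Kdr was 0.774, 0.767 and 0.667 in Wt and 0.660, 0.596 and 0.623 in mutant mice. The ratio was lower in every mutant mouse than in every Wt mouse, by 0.23 on the log2 scale (exact two-sided permutation test, p = 0.1, the smallest that 3 mice against 3 allow, 0.167 after adjustment over the 5 ratios tested).

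Tek (ENSMUSG00000006386, chr4:94739289-94874976, plus strand) encodes the angiopoietin receptor. Its values were 73.8, 71.5 and 65.0 CPM in Wt and 101, 94.3 and 77.9 CPM in mutant mice. All mutant mice were above all Wt mice, with the smallest gap between mutant mouse 3 and Wt mouse 1. The means were 70.1 ± 4.55 and 91.1 ± 12.0 CPM, a ratio of 1.30, and the log2 fold change was 0.37 ± 0.12 (SE, 95% interval 0.09 to 0.65). The adjusted p was 0.115 in limma, and 0.0321 in DESeq2's Wald test. In limma it was 0.233 after centring by GC content and 0.0597 to 0.310 with a mouse left out.

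Vegfa (ENSMUSG00000023951, chr17:46016993-46032369, minus strand), which encodes the principal growth factor for blood vessels, was at 284, 239 and 231 CPM in Wt and at 291, 225 and 218 CPM in mutant mice. The genotypes covered the same range, with mouse 1 highest in each. The means were 251 ± 28.7 and 245 ± 40.1 CPM, and the log2 fold change was -0.05 ± 0.14 (SE, 95% interval -0.39 to 0.30, adjusted p = 0.862, limma). Its sign turned under some alternatives.

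Vegfb (ENSMUSG00000024962, chr19:6982473-6987651, minus strand) encodes a ligand of FLT1. It was at 116, 96.8 and 90.9 CPM in Wt and at 95.9, 80.2 and 74.7 CPM in mutant mice. Most mutant mice lay below the Wt mice, but mutant mouse 1 was above Wt mouse 3. The means were 101 ± 13.4 and 83.6 ± 11.0 CPM, with a log2 fold change of -0.28 ± 0.13 (SE, 95% interval -0.60 to 0.05, adjusted p = 0.267, limma). Vegfb had a GC content of 62.6%. The genes of its GC class, the highest of 20, had a median log2 fold change of -0.29, and after centring by GC content its own value was 0.02.
The ratio of Vegfa to Vegfb within a mouse was 2.44, 2.47 and 2.54 in Wt and 3.03, 2.80 and 2.92 in mutant mice. It was higher in every mutant mouse, by 0.23 on the log2 scale (exact two-sided permutation test, p = 0.1, adjusted 0.167). The GC content of Vegfa was 50.9%, lower than that of Vegfb. The genes of their GC classes had median log2 fold changes of -0.07 and -0.29. After centring by GC content the log2 fold changes of Vegfa and Vegfb were 0.04 and 0.02. The part of GC content in this ratio was not tested.

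Angpt1 (ENSMUSG00000022309, chr15:42424723-42676977, minus strand), the activating ligand of TEK, was at 43.7, 36.6 and 28.4 CPM in Wt and at 55.9, 37.0 and 37.0 CPM in mutant mice. Mutant mouse 1 was the highest, and the other mutant mice lay within the Wt range. The means were 36.3 ± 7.64 and 43.3 ± 10.9 CPM, and the log2 fold change was 0.25 ± 0.22 (SE, 95% interval -0.28 to 0.77, adjusted p = 0.510, limma), the widest interval of the 10 genes. Without mutant mouse 1 it was 0.05. Its exons share 737 bases with Gm17473 on the other strand, which was at 0.587, 0.486 and 0.337 CPM in Wt and 1.47, 1.80 and 1.45 CPM in mutant mice. Gm17473 was called higher (log2 fold change 1.10, adjusted p = 0.0136, limma). With mean levels of 1.02 CPM for Gm17473 and 39.8 CPM for Angpt1, Gm17473 belongs to the genes under an abundant gene of the other strand. Of 1192 such genes tested, 578 were called, 576 of them higher. The use of strand in the counting is not given in the sources used here, so reads of the shared stretch cannot be told apart, and the level of Gm17473 was far below that of Angpt1.

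Angpt2 (ENSMUSG00000031465, chr8:18690263-18741562, minus strand), the ligand that endothelial cells store and release, was the lowest of the 10 genes. It was at 12.1, 10.8 and 10.9 CPM in Wt and at 10.7, 13.3 and 11.3 CPM in mutant mice. The genotypes overlapped, with means of 11.3 ± 0.706 and 11.8 ± 1.36 CPM and a log2 fold change of 0.06 ± 0.12 (SE, 95% interval -0.24 to 0.36, adjusted p = 0.786, limma). The ratio of Angpt2 to Angpt1 was 0.276, 0.295 and 0.383 in Wt and 0.192, 0.360 and 0.305 in mutant mice. These ratios overlapped and differed by -0.19 on the log2 scale (exact two-sided permutation test, p = 0.7, adjusted 0.875).

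**Figure D2:**
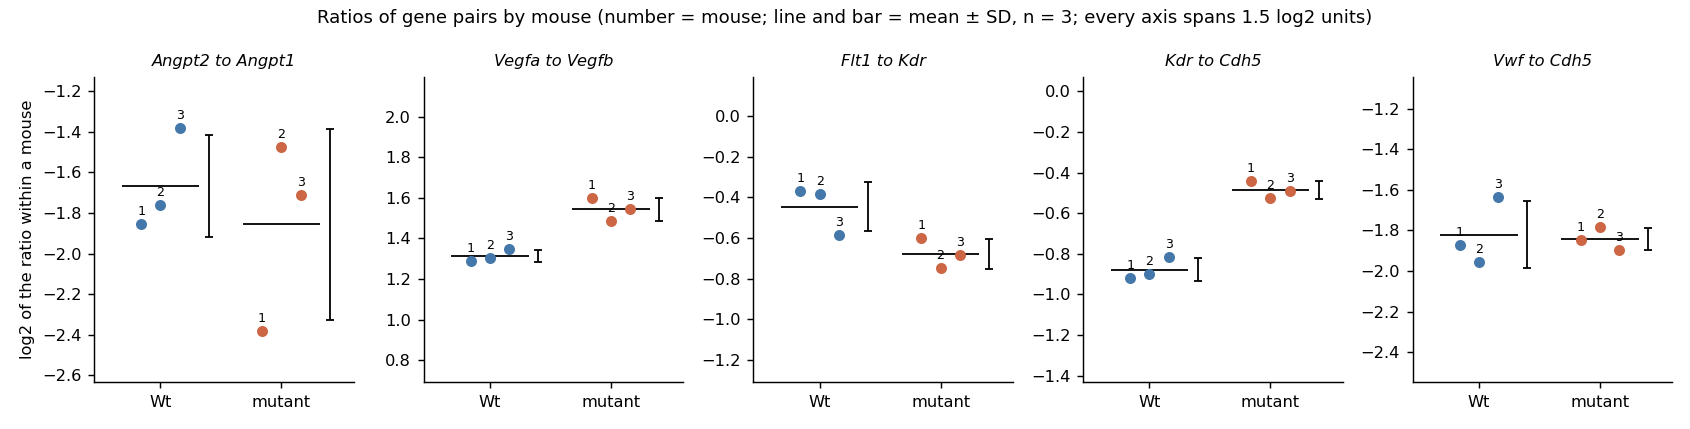
Log2 of the ratio of gene pairs within each mouse (vertical axes, each spanning 1.5 log2 units) in 3 Wt (blue) and 3 mutant (orange) mice, with mouse numbers, the mean as a line and ± 1 SD as a bar. The ratios Vegfa to Vegfb, Flt1 to Kdr and Kdr to Cdh5 do not overlap between the genotypes, and the ratios Angpt2 to Angpt1 and Vwf to Cdh5 do.

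Cdh5 (ENSMUSG00000031871, chr8:104101625-104144511, plus strand) encodes VE-cadherin, the adhesion molecule of endothelial junctions. Its values were 287, 241 and 246 CPM in Wt and 268, 282 and 240 CPM in mutant mice. The genotypes overlapped fully, with means of 258 ± 24.9 and 263 ± 21.7 CPM and a log2 fold change of 0.03 ± 0.11 (SE, 95% interval -0.23 to 0.29, adjusted p = 0.877, limma). Set against Cdh5 in the same mouse, Kdr was at 0.529, 0.536 and 0.569 in Wt and at 0.736, 0.694 and 0.712 in mutant mice. This ratio does not depend on the scaling of the libraries. It was higher in every mutant mouse than in any Wt mouse, by 0.39 on the log2 scale (exact two-sided permutation test, p = 0.1, adjusted 0.167).

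Pecam1 (ENSMUSG00000020717, chr11:106654217-106750628, minus strand) encodes CD31, a junction protein of endothelial cells that platelets and many leukocytes also carry. It was at 240, 263 and 309 CPM in Wt and at 196, 274 and 246 CPM in mutant mice. Mutant mouse 1 was the lowest, followed by Wt mouse 1, the same 2 mice with the lowest lymph node sums. The means were 271 ± 35.0 and 239 ± 39.8 CPM, with a log2 fold change of -0.19 ± 0.16 (SE, 95% interval -0.57 to 0.19, adjusted p = 0.488, limma), and without mutant mouse 1 it was -0.05. The ratio of Pecam1 to Cdh5, chosen after the values were seen and not tested, was 0.837, 1.09 and 1.25 in Wt and 0.729, 0.971 and 1.03 in mutant mice, lowest in mouse 1 of each genotype.

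Vwf (ENSMUSG00000001930, chr6:125546774-125686679, plus strand) encodes von Willebrand factor, a clotting protein made by the endothelium, mostly of larger vessels, and by megakaryocytes. It was at 78.4, 62.1 and 79.3 CPM in Wt and at 74.5, 81.9 and 64.5 CPM in mutant mice. The means nearly coincided, at 73.3 ± 9.64 and 73.6 ± 8.72 CPM (log2 fold change 0.01 ± 0.13, SE, 95% interval -0.31 to 0.33, adjusted p = 0.974, limma). After centring by GC content the log2 fold change was 0.25. The ratio of Vwf to Cdh5 was 0.274, 0.258 and 0.322 in Wt and 0.278, 0.290 and 0.269 in mutant mice and overlapped (difference -0.02 on the log2 scale, exact two-sided permutation test, p = 0.9, adjusted 0.9). Platelet markers (4 of 8 genes tested, 0 called) summed to 40.5 to 50.1 CPM in Wt and 28.9 to 37.8 CPM in mutant mice, with Gp1bb at 0 in every mouse. Of the 4 tested, 3 had a lower mean log2 value in mutant mice and 1, Gp1ba, a higher one. The part of platelet content in the values of Vwf was not tested.

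**Figure D3:**
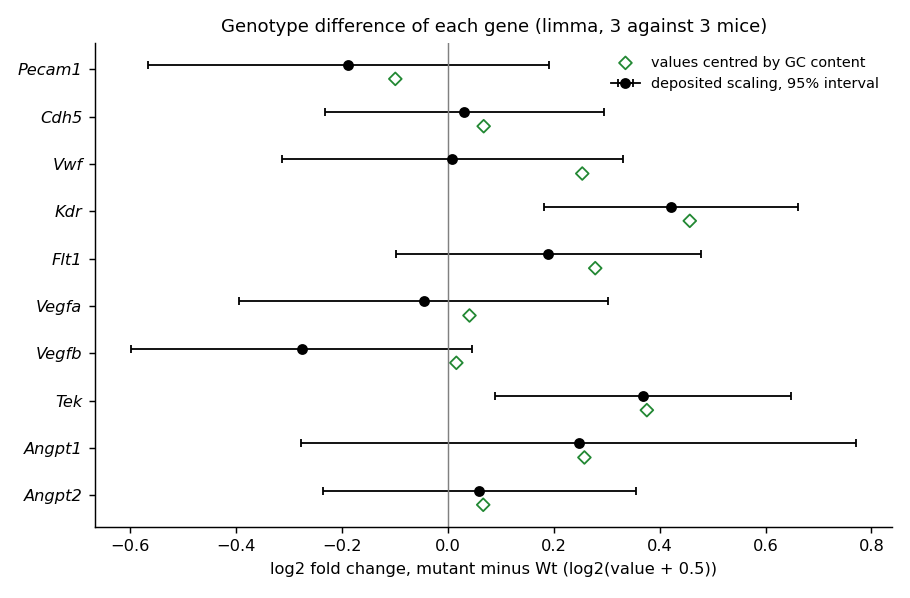
Log2 fold change of each gene, mutant minus Wt (horizontal axis, from log2(value + 0.5)), with its 95% interval from limma (filled circles, 3 against 3 mice) and the value after centring by GC content (open diamonds). The intervals of Kdr, 0.18 to 0.66, and Tek, 0.09 to 0.65, lie above 0 and the other 8 include 0. Vegfb and Vegfa are at 0.02 and 0.04 after centring.

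Other genes of the endothelium and of these pathways were read from the same test. Of 115 distinct genes in 11 lists, 4 were called (3.48%, beside 8.11% of all genes tested), 2 higher and 2 lower, and their median log2 fold change was -0.04. Without genes under an abundant gene of the other strand, 2 of 114 listed genes were called, beside 344 of 15676 genes tested (limma). In the list of endothelial identity genes, not all of them shared by every kind of vessel, 5 of 20 had a higher and 15 a lower mean log2 value in mutant mice. Their median log2 fold change was -0.21. After centring by GC content that median was -0.01, with 11 of 20 below 0. The transcription factor gene Sox18 was its 1 called gene. It was at 34.2, 35.3 and 38.5 CPM in Wt and 23.0, 28.4 and 23.5 CPM in mutant mice (log2 fold change -0.52 ± 0.11, SE, adjusted p = 0.038, limma) and at -0.23 with an adjusted p of 0.314 after GC centring. Values of 8 of the 20 genes did not overlap between the genotypes, 7 lower and 1 higher (40%, beside 30.6% of all genes tested). The 1 higher gene, chosen after its values were seen, was Emcn, the gene of the sialomucin endomucin of capillaries and veins, with 24.0 ± 2.14 CPM in Wt and 33.0 ± 3.20 in mutant mice (log2 fold change 0.45, adjusted p = 0.062, limma).

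In the angiopoietin pathway, 1 of 8 genes was called. Dok2, which encodes an adaptor that binds activated TEK and is also expressed in blood cells, was at 22.6, 23.9 and 25.7 CPM in Wt and fell to 16.1, 15.3 and 14.8 CPM in mutant mice (log2 fold change -0.63 ± 0.09, SE, adjusted p = 0.012, limma). After GC centring its value was -0.38 with an adjusted p of 0.136, and without Wt mouse 2, Wt mouse 3 or mutant mouse 2 the adjusted p was 0.0636, 0.0563 and 0.0633. The list's median was -0.18. None of the 6 further genes of the VEGF family was called, with log2 fold changes of -0.49 to 0.48 and a median of -0.08. None of 11 Notch genes was called (-0.41 to 0.22, median 0.02).

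Among 18 other angiogenic ligands and inhibitors, Thbs1 was called higher. Thbs1 encodes thrombospondin 1, an inhibitor of angiogenesis made by many cell types. It was at 28.9, 23.9 and 25.7 CPM in Wt and rose to 55.6, 48.8 and 45.8 CPM in mutant mice, a log2 fold change of 0.92 ± 0.11 (SE, adjusted p = 0.0058, limma), and leaving out any 1 mouse gave an adjusted p of 0.011 to 0.033. The list's median was 0.03. Of 16 genes of the hypoxia response, 1 was called. Egln3, whose product hydroxylates the hypoxia-inducible factors and is itself induced by them, was at 4.15, 4.72 and 5.17 CPM in Wt and 8.33, 6.82 and 8.19 CPM in mutant mice (log2 fold change 0.68 ± 0.15, SE, adjusted p = 0.041, limma). Its call was lost when any 1 mouse was left out, with an adjusted p of 0.088 to 0.135. The median of the hypoxia list was -0.02, beside -0.05 for Vegfa, a target of the same factors.

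The lists that mark kinds of vessel held no called gene. Log2 fold changes were -0.54 to 0.34 (median -0.12) for 8 genes of fat capillaries, -0.28 to 0.36 (median 0.00) for 8 arterial genes, -0.71 to 0.07 (median -0.21) for 6 venous genes and -0.70 to 0.43 (median -0.19) for 8 lymphatic genes. For 10 genes of mural cells, the pericytes and smooth muscle cells around vessels, they were -0.78 to 0.80 (median 0.17). The lowest venous and lymphatic values were those of Vcam1 and Prox1. Vcam1 was at 17.2 CPM in mutant mouse 1 and 39.9 in Wt mouse 1, and Prox1 at 1.83 and 3.56. Both genes were higher in every other mouse. Mutant mouse 1 and Wt mouse 1 also had the lowest lymph node sums. Nr2f2 (venous) and Stab1 (lymphatic) did not follow this order and were lower in every mutant mouse than in any Wt mouse. Pdpn (lymphatic) was higher in every mutant mouse than in any Wt mouse. Values did not overlap between the genotypes for 1 of 6 venous and 2 of 8 lymphatic genes (16.7% and 25%), beside 30.6% of all genes tested. The part of lymph node content in these lists was not tested.

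**Figure D4:**
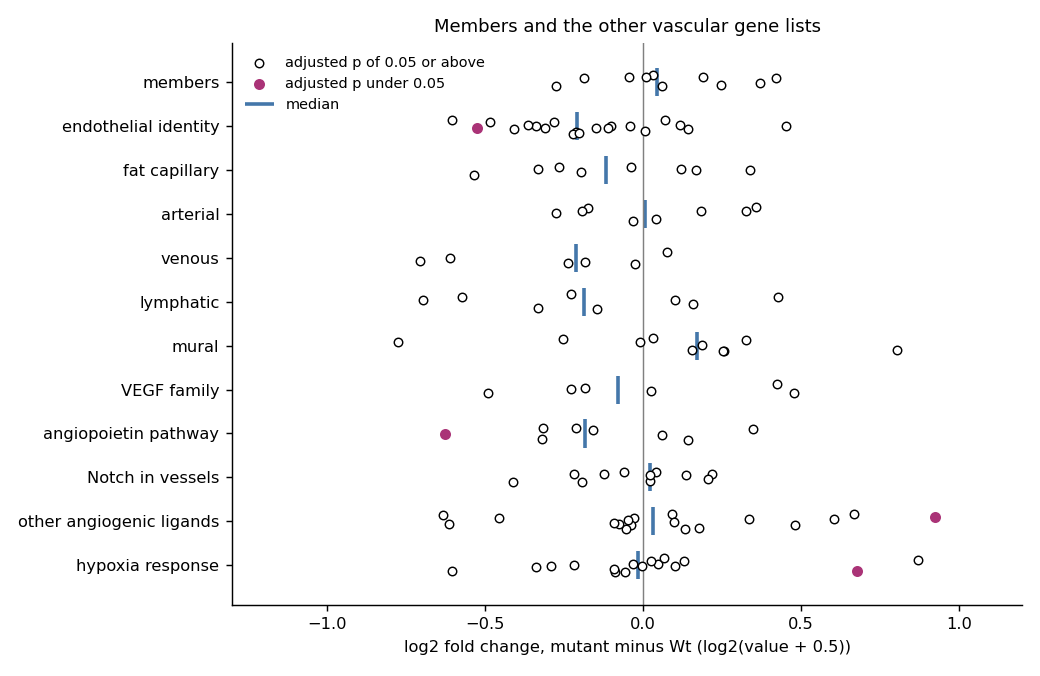
Log2 fold change, mutant minus Wt (horizontal axis), of the 10 genes (top row) and of each gene of the 11 other vascular lists (1 point per gene, filled where the adjusted p in limma is under 0.05), with the median as a blue line. The 4 called genes are Sox18 at -0.52, Dok2 at -0.63, Thbs1 at 0.92 and Egln3 at 0.68.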

How the data were processed

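RNA was extracted from inguinal fat of 3 Wt and 3 mutant mice, and a genomics core facility made and sequenced the libraries. The submitters' processing notes name Bowtie2 2.1.0, RSEM 1.2.15, edgeR and the build mm10. Annotation, strand setting and normalization are not given in the sources used here. The authors deposited 1 value per gene and mouse, a normalized signal of reads divided by a scaled library size (normalized CPM, unfiltered, no pooled replicates), and 100.0% of values above 0 were whole reads within 0.02 read, so reads were recovered. Their sums lay between 901654 and 1039031 per mouse. Of 55573 identifiers, 55480 matched GENCODE M21 (GRCm38, the same build as mm10), used for coordinates, length and GC content.

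The genotypes were compared with limma 3.58.1 (R 4.3.3, trend option) on log2(value + 0.5), which understates changes of low genes, over the 16868 genes kept by filterByExpr of edgeR 4.0.16, with Benjamini-Hochberg adjustment over all of them and an FDR of 0.05. The test had been planned for either unit, and the log model was used because the values are normalized. Scripts were tested on simulated data. Ratios within a mouse were compared with exact permutation tests. Mice are separate animals, and reads of same-genotype mice differed far more than counting noise allows (chi-square of 19.3 to 64.9 per degree of freedom). The genes and lists were chosen with earlier results of these data known. Genes named are the 10 genes, the called genes of each list (at most 6, or 2 for marker lists) and genes that overlap one of the 10 on the other strand. Figf of the VEGF list is an older name of Vegfd and was dropped. Alternatives were other scalings, edgeR and DESeq2 1.42.0 on recovered reads, other filters and pseudocounts (0.1 and 1), GC centring in 20 bins, a replicate block, and the omission of each mouse in turn. The removal of genes under an abundant gene (at least 10 times the level) of the other strand was chosen after seeing the data. Proteins were not used here.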

Additional observations from a re-analysis of the deposited data

How the results depend on the processing

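With 3 mice a genotype, differences of the size of those of Flt1 or Vegfb did not pass the test. The direction of Kdr, Tek, Flt1 and Angpt1 (higher) and of Pecam1 (lower) was kept under all 18 alternatives. Of the 10 genes, 1 was called with DESeq2's size factors and 1 with library size only (Kdr in each), 2 with DESeq2's Wald test, and 0 to 0 when a mouse was left out. The count over all genes, 1368, was 2118 with DESeq2's Wald test, 598 with at least 10 reads in every mouse, 344 without genes under an abundant gene of the other strand (of 1192 such genes, 578 were called, 576 of them higher, and none is among the 10) and 545 to 1043 without a mouse. Wt mouse 2 gave the lowest count. Of the 115 listed genes 4 were called, 12 with DESeq2's Wald test, 2 with at least 10 reads, 2 with GC centring, 2 without the other-strand genes and 1 to 4 without a mouse, the lowest without Wt mouse 3, and 2 without Wt mouse 2 or mutant mouse 2. Signs turned for some genes and ratios. With a mouse left out, log2 fold changes were -0.020 to 0.11 for Cdh5 (below 0 without Wt mouse 2 or mutant mouse 2), -0.11 to 0.0998 for Vwf (below 0 without Wt mouse 2, mutant mouse 1 or mutant mouse 2), -0.18 to 0.046 for Vegfa (above 0 without Wt mouse 1, mutant mouse 2 or mutant mouse 3) and -0.029 to 0.12 for Angpt2 (below 0 without mutant mouse 2). With GC centring Vegfa (-0.05 before) was at 0.041 and Vegfb (-0.28 before) at 0.016. The log2 ratio of Angpt2 to Angpt1 was -0.38 to 0.074 without a mouse (above 0 without mutant mouse 1) and that of Vwf to Cdh5 -0.090 to 0.070 (above 0 without Wt mouse 3 or mutant mouse 3). The cause of these differences was not tested. Sox18 kept its call in limma with DESeq2's size factors (adjusted p = 0.0435) but not with library size only (0.102) or at least 10 reads in every mouse (0.0548), and over all alternatives its adjusted p was 0.0058 to 0.314, and it lost the call without any 1 mouse other than mutant mouse 2 (0.0752 to 0.134). In limma, Gm17473 lost its call without Wt mouse 2, Wt mouse 3 or mutant mouse 2 (0.0609 to 0.0658), Myh1 without Wt mouse 3, mutant mouse 2 or mutant mouse 3 (0.0611 to 0.0783), and C1qa without any 1 mouse other than mutant mouse 1 (0.0665 to 0.115) and with GC centring (0.327).

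The mouse numbers of the labels give no stated pairing. Across genes, deviations from the genotype mean correlated between mice of the same number at 0.686, 0.0573 and 0.560, and Wt mouse 2 correlated better with mutant mouse 3 (0.332) than with its own number, so the numbers were not taken to pair the mice. A replicate block on these numbers moved the calls to 4063 over all genes, 4 of the 10 genes (Kdr, Tek, Flt1 and Vegfb) and 30 listed genes. With GC centring and the replicate block the counts were 3081, 4 (Kdr, Tek, Flt1 and Angpt1) and 20, with Vegfa at 0.041 and Vegfb at 0.016. The ratios under the block, by an exact sign-flip test of 3 differences, had p of 0.25 to 1, where 0.25 is the smallest possible.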

Other observations

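Set against the mean log2 level of the 20 endothelial identity genes in the same mouse, a measure chosen after the values were seen and not tested, Kdr was higher in mutant mice by 0.60 and Tek by 0.55 on the log2 scale, Flt1 by 0.37 and Cdh5 by 0.21. Of the 10 genes, 8 were above 0 on this scale and the values of 6 did not overlap between the genotypes, which were Kdr, Tek, Flt1, Cdh5, Vwf and Angpt2, beside 30.5% of all genes tested on the same scale and 2 of the 10 on the plain scale. The mean of the 20 genes that was subtracted itself differed by -0.18 on the log2 scale between mutant and Wt mice, so every gene is moved up by that amount. The median of the 20 genes moved from -0.21 to -0.01 with GC centring, so the part of GC content in these differences was not tested.

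Some uncalled genes of the lists, chosen after their values were seen, had values that did not overlap between the genotypes, as did 30.6% of all genes tested. Acta2, smooth muscle actin, was at 86.4 ± 25.4 CPM in Wt and 148 ± 25.8 in mutant mice (SD, n = 3, adjusted p = 0.089, limma), and Cspg4, the pericyte proteoglycan NG2, at 113 ± 22.4 and 66.1 ± 15.3 (adjusted p = 0.068, limma), so mural genes lay on both sides. Vegfc, a ligand of lymphatic growth, was at 4.04 ± 0.477 and 5.89 ± 1.34 CPM (adjusted p = 0.198, limma), and Pgf, placental growth factor, at 3.86 ± 0.499 and 2.62 ± 0.555 CPM (adjusted p = 0.172, limma). Angptl2 and Angptl4, secreted angiopoietin-like proteins that do not bind TEK, were at 234 ± 34.5 and 151 ± 21.7 CPM (adjusted p = 0.0520, limma) and at 335 ± 65.0 and 219 ± 43.5 CPM (adjusted p = 0.115, limma).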
